A study of Mus musculus with 20 samples.

Results

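Bone is a target of several circulating hormones, and 9 genes that receive, carry or end their signals were followed in mouse tibiae. They are Vdr (the vitamin D receptor), Rxra (retinoid X receptor alpha, the nuclear receptor with which it pairs on DNA), Cyp24a1 (the enzyme that inactivates vitamin D hormone), Pth1r (the receptor for parathyroid hormone and for parathyroid hormone-related protein), Pthlh (the gene of the latter ligand), Esr1 (estrogen receptor alpha), Nr3c2 (the mineralocorticoid receptor), Ghr (the growth hormone receptor) and Thrb (thyroid hormone receptor beta). The genes were chosen by name, with earlier results of these data known, and all 9 of 9 were found among the 54446 genes of the deposited table.

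Tibiae came from male C57BL/6J mice aged 3 months, which were injected s.c. for 5 days with DEX (dexamethasone, a synthetic glucocorticoid) at 1 mg/kg or with water. Axial compression at -13 N was applied to the left tibia, 40 cycles a session with 10 s of rest between cycles, and the right tibia of each mouse was the unloaded control. The labels of the samples place the sessions on days 1 and 3, whereas the study's account of this experiment adds a further weekly session; the tibiae were frozen within hours of the last one. The 4 groups of 5 libraries are called Vehicle_Ctrl and Vehicle_Load (water, unloaded and loaded) and DEX_Ctrl and DEX_Load (DEX, unloaded and loaded). DEX_Ctrl replicate 4 was left out of the tests, so 19 libraries remained, and in each vehicle group 1 library is called unnumbered because its column number matches no label. Each p-value therefore measures the spread between these libraries, and nothing in the labels states which numbers came from the same mouse.

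Nuclear hormone receptors such as Vdr, Rxra, Esr1, Nr3c2 and Thrb bind a small lipid-soluble hormone and act directly on DNA. Pth1r instead sits in the cell membrane of osteoblasts, osteocytes and growth plate chondrocytes and signals through G proteins and cyclic AMP, and Ghr signals through the kinase Jak2 and the factor Stat5. Glucocorticoid excess is known to suppress bone formation, and the design asks how DEX and mechanical load, alone and together, alter gene expression in the tibia.

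Vdr, Pth1r and Thrb were the genes that passed the test in at least 1 comparison. For each, 1 stretch of promoter that lies before an annotated start and outside every annotated exon is printed, the longest such stretch with a GC box, because the GC box, GGGCGG on either strand, was the searched motif found in all 3 genes; capitals mark it. The Vdr stretch is chr15:97908311-97908546 on the minus strand, the Pth1r stretch is chr9:110743687-110743936 on the minus strand, and the Thrb stretch is chr14:17660710-17660891 on the plus strand, all of build GRCm38.p6 with sequences from RefSeq.
Vdr: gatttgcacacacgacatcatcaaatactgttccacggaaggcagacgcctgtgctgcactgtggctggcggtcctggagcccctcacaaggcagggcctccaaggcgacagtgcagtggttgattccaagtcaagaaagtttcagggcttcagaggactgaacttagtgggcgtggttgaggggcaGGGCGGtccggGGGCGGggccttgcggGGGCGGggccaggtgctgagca
Pth1r: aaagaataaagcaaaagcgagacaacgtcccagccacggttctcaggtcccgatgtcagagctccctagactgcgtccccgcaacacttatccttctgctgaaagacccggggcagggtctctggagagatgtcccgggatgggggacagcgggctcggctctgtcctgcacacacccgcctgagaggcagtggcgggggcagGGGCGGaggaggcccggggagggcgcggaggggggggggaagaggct
Thrb: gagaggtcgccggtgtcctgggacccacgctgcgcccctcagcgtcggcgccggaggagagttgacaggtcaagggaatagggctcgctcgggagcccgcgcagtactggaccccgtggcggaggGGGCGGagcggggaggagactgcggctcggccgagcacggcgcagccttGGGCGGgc
The Vdr stretch holds 3 GC boxes close together, the Pth1r stretch 1 and the Thrb stretch 2. Of the stretches not printed, 1 of Pth1r (chr9:110742720-110742860) holds 2 GC boxes, and the other one of Pth1r and the one of Thrb hold 0. In the 250 bases before each start, 8 of the 9 genes had 14 windows in the RefSeq table, and a GC box lay in 8 of the 14 windows, against 32.7% of the 32851 promoters of the table. These 8 windows belong to 7 genes (Vdr, Rxra, Pth1r, Pthlh, Nr3c2, Ghr and Thrb). The glucocorticoid response element (AGAACA, any 3 bases, TGTTCT) and the direct repeat bound by Vdr with Rxra (AGGTCA, any 3 bases, AGGTCA) were found, on either strand, in 0 of the 14 windows and in 0.00913% and 0.00609% of all promoters. The receptor motif AGGTCA alone was found in 2 of the 14 windows, of Rxra and Thrb (14% of all promoters), and it is also the repeated unit of the direct repeat. These letters describe the windows only.

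The libraries held 4641437 to 13032018 counts. Levels are given as CPM, the counts of a gene scaled by the TMM-normalized library size, and levels of different genes are compared per kilobase of exon. The 9 cell type marker lists were all detected, with 0 markers at 0 in any group. Osteoblast markers summed to 40485 to 143396 CPM in Vehicle_Ctrl and 63337 to 94652 in Vehicle_Load, against 6229 to 35114 in DEX_Ctrl and 4643 to 23057 in DEX_Load. Marrow and muscle were in the samples too: neutrophil markers summed to between 4237 CPM (Vehicle_Load) and 17040 CPM (DEX_Load), and skeletal muscle markers to between 2376 CPM (DEX_Ctrl) and 35762 CPM (Vehicle_Ctrl). In such bulk samples, fewer cells of a type and less RNA per cell cannot be told apart. Reads on 1457 olfactory and vomeronasal receptor genes, which bone is not known to use, were measured as a sign of background: they took 351 to 1253 CPM in Vehicle_Ctrl, 237 to 844 in Vehicle_Load, 726 to 2673 in DEX_Ctrl and 1001 to 5941 in DEX_Load, so the loaded groups did not overlap.

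Per kilobase, Pth1r was the most abundant of the 9 genes in every group. In Vehicle_Ctrl it stood at 35.1 ± 12.4 CPM per kb (SD, n = 5), and Vdr followed at 14.4 ± 4.17, with ranges that did not overlap. Rxra (10.1 ± 2.07) overlapped in range with Vdr above it and with Ghr (6.68 ± 0.960) below it. Esr1 (3.18 ± 0.326) was separate from Ghr above and from Nr3c2 below. Nr3c2 (1.92 ± 0.364) and Thrb (1.85 ± 0.181) overlapped, as did Thrb and Pthlh (1.19 ± 0.605), and Cyp24a1 was the lowest at 0.134 ± 0.126. Under DEX the order changed near the top: in DEX_Ctrl Rxra (7.96 CPM per kb) and Vdr (7.84) were level and overlapped, and in DEX_Load the range of Pth1r (mean 16.05) overlapped with that of Rxra (8.99).

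**Figure D1:**
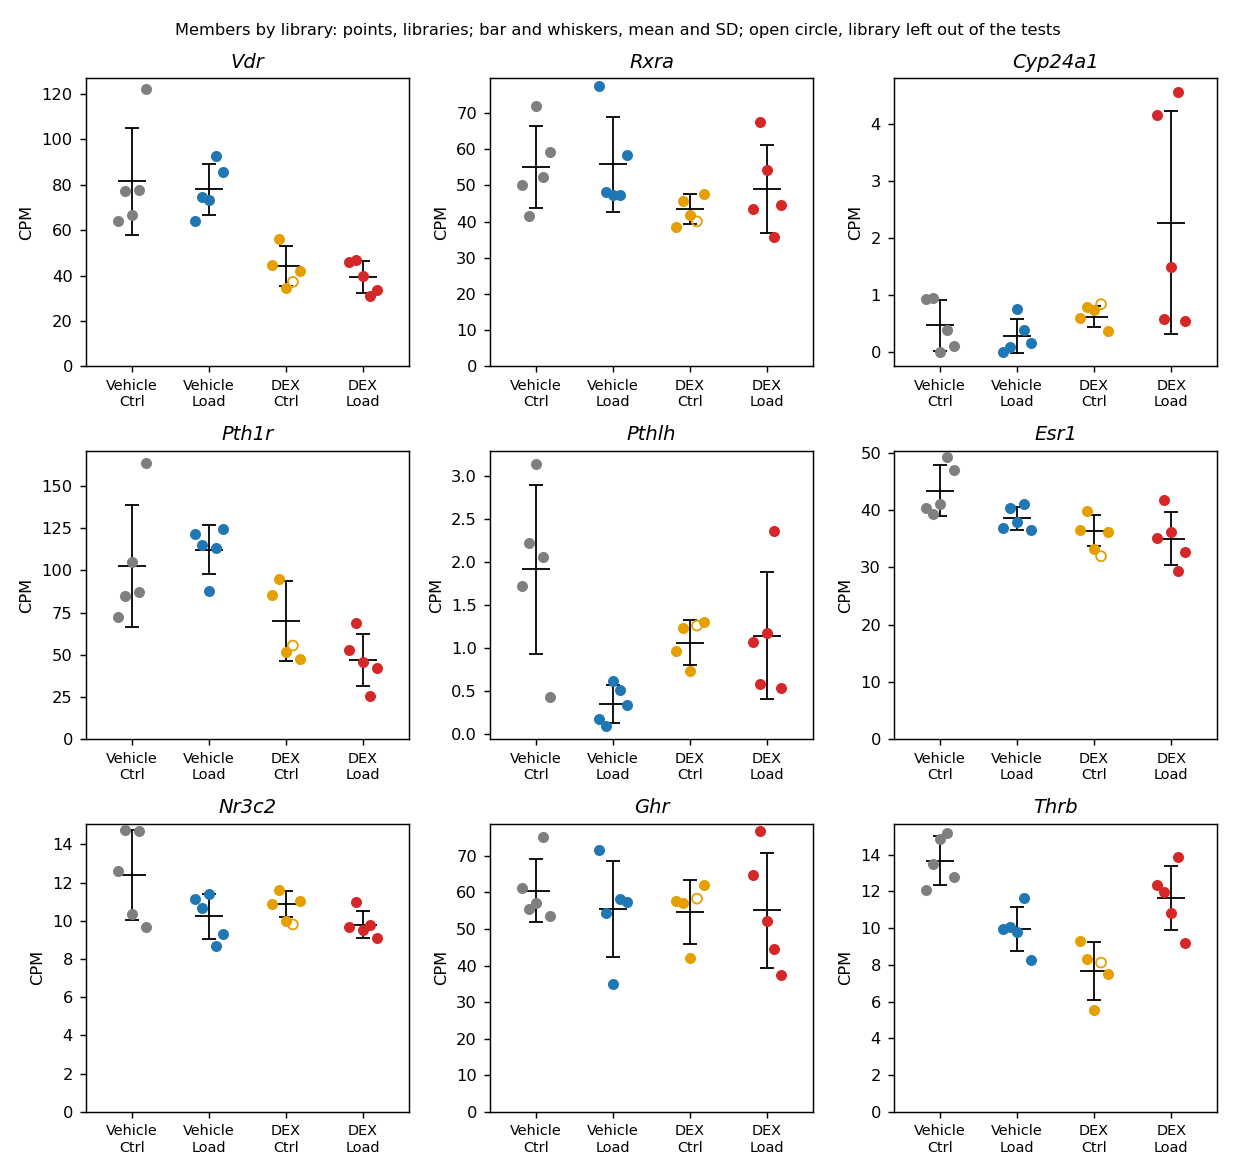
CPM of the 9 genes (y axis, linear) in each library of the 4 groups (x axis); black bars and whiskers are the mean and SD of the libraries used in the tests, and the open circle is DEX_Ctrl replicate 4, which was left out. All Vdr points of the vehicle groups (64.1 to 122 CPM) lie above all those of the DEX groups (31.0 to 56.0 CPM), and Thrb is highest in Vehicle_Ctrl and lowest in DEX_Ctrl.

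The first question was how DEX altered these genes. In loaded tibiae, Vdr and Pth1r fell, which were 2 of the 7 genes tested, while 21.3% of all 19780 genes tested passed, 8.35% as lower and 12.9% as higher. In unloaded tibiae, Vdr and Thrb fell, 2 of 8 tested, while 6.84% of all 19738 genes passed, 3.99% as lower and 2.86% as higher. The median log2 fold change of the genes tested was -0.10 in loaded tibiae, against 0.00 over all genes, and -0.43 in unloaded tibiae, against 0.03, where 8 of 8 were negative.

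Vdr (ENSMUSG00000022479.15, chr15:97854425-97910630, minus strand of GRCm38) takes up the active vitamin D hormone. It stood at 64.2, 77.2, 66.6, 77.5 and 122 CPM in Vehicle_Ctrl, the last being the unnumbered library, and at 64.1, 74.4, 73.1, 92.7 and 85.8 CPM in Vehicle_Load. In DEX_Ctrl it stood at 44.6, 56.0, 34.6 and 42.1 CPM, and in DEX_Load at 45.8, 47.0, 39.9, 31.0 and 33.5 CPM. All 10 vehicle libraries were thus above all 9 DEX libraries.

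Vdr fell by 0.94 on the log2 scale in loaded tibiae (SE 0.148, 0.520 of the vehicle level, edgeR quasi-likelihood adjusted p = 0.00234). In unloaded tibiae it fell by 0.87 (SE 0.202, 0.549 of the vehicle level, edgeR adjusted p = 0.0278). Groups that do not overlap were found for 16.5% of all genes in the loaded and 10.8% in the unloaded comparison. The loaded result was called without any 1 of the 10 libraries, with log2 fold changes from -1.05 to -0.88. The unloaded result was called in 5 of 9 such fits: the edgeR adjusted p was 0.116 without DEX_Ctrl replicate 3, 0.0558 without Vehicle_Ctrl replicate 5, 0.0535 without DEX_Ctrl replicate 1 and 0.0534 without DEX_Ctrl replicate 5. It was also lost in a fit with the replicate number as a block (log2 fold change -0.62, edgeR adjusted p = 0.0909), although here the number joins libraries of different mice. In 2 alternatives chosen after seeing the data it was lost too. These were the same libraries without the number (edgeR adjusted p = 0.0746) and the skeletal muscle marker sum as a covariate (-1.16, edgeR adjusted p = 0.0533). It was called in 7 of 10 such alternatives.

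Rxra (ENSMUSG00000015846.14, chr2:27676440-27762957, plus strand) is the shared partner of Vdr, the thyroid hormone receptors and the receptors of the RXR partner list. It ranged from 41.6 to 71.8 CPM in Vehicle_Ctrl, 47.3 to 77.5 in Vehicle_Load, 38.6 to 47.8 in DEX_Ctrl and 35.7 to 67.5 in DEX_Load, and all 4 groups overlapped. Its log2 difference under DEX was -0.14 (95% interval -0.53 to 0.25) in loaded tibiae and -0.32 (-0.66 to 0.02) in unloaded tibiae, and neither passed the test (edgeR adjusted p = 0.592 and 0.232).

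Cyp24a1 (ENSMUSG00000038567.5, chr2:170482708-170497145, minus strand) is the classic gene induced by the vitamin D receptor, and its product starts the breakdown of the hormone. Its counts were 7, 9, 0, 3 and 1 in Vehicle_Ctrl, 0, 1, 6, 3 and 2 in Vehicle_Load, 5, 7, 6 and 4 in DEX_Ctrl, and 31, 6, 14, 29 and 5 in DEX_Load. A count of 0 allows up to 3 counts at these depths, which covers counting error only. Most libraries held fewer than 10 counts, and 3 DEX_Load libraries stood above them.

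The gene missed the filter on low counts in every comparison. With all genes of at least 1 count kept, it was higher in DEX_Load than in Vehicle_Load by 2.77 on the log2 scale (SE 0.747, edgeR adjusted p = 0.0106). Its counts followed the receptor gene background: the 2 DEX_Load libraries with 31 and 29 counts had 2826 and 5941 CPM on those genes, and Spearman's rho over the 19 libraries was 0.857. DEX_Ctrl replicate 1, with 2673 CPM on those genes, held 5 counts. The part of background in the Cyp24a1 counts was not tested. Cyp24a1 also overlaps Pfdn4 on the opposite strand, and the strand setting of the counting is not given in the sources used here.

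**Figure D2:**
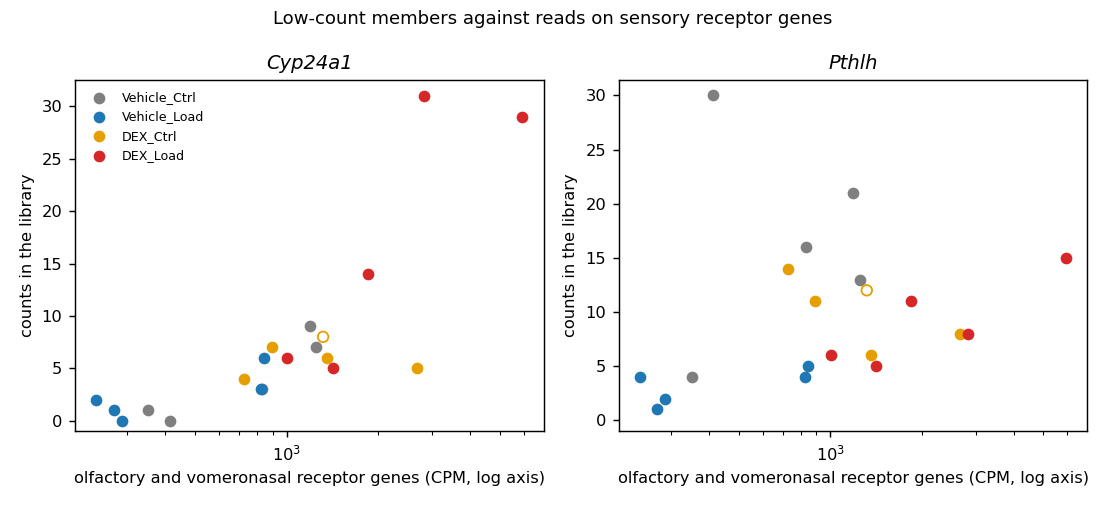
Counts of Cyp24a1 and Pthlh in each library (y axis) against CPM on olfactory and vomeronasal receptor genes (x axis, log scale), with colors for the 4 groups and an open circle for DEX_Ctrl replicate 4. The highest Cyp24a1 counts, 31 and 29, are in DEX_Load libraries with 2826 and 5941 CPM of background, whereas Pthlh is highest, at 30 counts, in a Vehicle_Ctrl library with 413 CPM.

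Among 19 other genes of the vitamin D axis, 6 of 15 tested passed in loaded tibiae, 1 higher and 5 lower, against the 21.3% of all genes. Their median log2 fold change was -0.38. In unloaded tibiae, 4 of 14 passed, all lower (6.84% of all genes), with a median of -0.37. Bglap and Bglap2, which encode osteocalcin, the hormone-responsive protein of mineralizing osteoblasts, had log2 fold changes of -3.47 (SE 0.552) and -2.98 (SE 0.465) in loaded tibiae and of -2.95 (SE 0.534) and -3.11 (SE 0.592) in unloaded tibiae, and both fell in each. These paralogs are near-identical, so the split of reads between them is uncertain. Enpp1, an enzyme that makes the mineralization inhibitor pyrophosphate, fell by 0.99 (SE 0.164) in loaded and by 0.71 (SE 0.141) in unloaded tibiae. Cdkn1a, a cell cycle inhibitor, fell by 0.96 (SE 0.239) in unloaded tibiae (-0.59 with the log2 receptor gene background as a covariate, edgeR adjusted p = 0.0787). Fgf23, the phosphate-lowering hormone of osteocytes, rose by 1.63 (SE 0.478) in loaded tibiae, from mean counts of 5.6 in Vehicle_Load to 14.2 in DEX_Load, and differed by 0.81 with this background covariate (edgeR adjusted p = 0.703). Cyp27b1, which makes the active hormone, was in the same low range, at 0.736 ± 0.304 CPM in Vehicle_Ctrl (SD, n = 5) and 1.95 ± 1.65 CPM in DEX_Load (n = 5), and missed the filter in both DEX comparisons.

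Pth1r (ENSMUSG00000032492.14, chr9:110722085-110747145, minus strand) stood at 72.1, 84.7, 105, 86.9 and 164 CPM in Vehicle_Ctrl and at 121, 115, 88.0, 113 and 125 CPM in Vehicle_Load. In DEX_Ctrl it stood at 85.3, 94.7, 51.8 and 47.3 CPM and in DEX_Load at 52.7, 68.6, 45.5, 25.8 and 42.0 CPM. The loaded groups did not overlap, whereas 2 of the 4 DEX_Ctrl libraries lay within the range of Vehicle_Ctrl. In loaded tibiae Pth1r fell by 1.22 on the log2 scale (SE 0.204, 0.430 of the vehicle level, edgeR adjusted p = 0.00306), and it was called without any 1 of the 10 libraries. In unloaded tibiae the difference was -0.55 (95% interval -1.11 to 0.01, edgeR adjusted p = 0.212). The change in the DEX effect between loaded and unloaded tibiae was -0.70 (SE 0.354) and did not pass (edgeR adjusted p = 0.421), so the 2 effects were not shown to differ. Pth1r overlaps Myl3, a muscle myosin light chain gene on the opposite strand, which held a mean of 23.3 counts.

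The Vdr and Pth1r falls came with lower markers of osteoblasts, osteocytes and B cells. Of 8 osteoblast markers, 7 fell in loaded and 5 in unloaded tibiae, with list medians of -1.36 and -1.25. Of 6 osteocyte markers, 4 and 3 fell (medians -0.81 and -0.82), and of 10 chondrocyte markers tested 9 fell in loaded tibiae (median -3.26). In unloaded tibiae 0 of 9 chondrocyte markers passed (edgeR; 2 had an unadjusted p under 0.05), with 4 positive and a median of -0.24, and with load in vehicle mice 9 of 9 were positive (median 2.05), of which 0 passed. Of 7 B cell markers, 6 fell in loaded and 2 in unloaded tibiae (medians -1.75 and -1.28). Over the 10 vehicle libraries, Spearman's rho of the osteoblast marker sum was 0.261 with Vdr and 0.685 with Pth1r, and over the 9 DEX libraries it was 0.767 and 0.917. For the osteocyte marker sum these values were 0.333 and -0.15 over the vehicle and 0.950 and 0.900 over the DEX libraries, and for the chondrocyte marker sum 0.297 and 0.758, and 0.750 and 0.867. For the B cell marker sum they were 0.176 and -0.10 over the vehicle and 0.283 and 0.433 over the DEX libraries. Over all 19 libraries, where the treatment difference enters, Vdr and Pth1r had rho of 0.868 and 0.907 with osteoblast, 0.881 and 0.735 with osteocyte, 0.844 and 0.935 with chondrocyte and 0.793 and 0.718 with B cell markers. These are descriptions of libraries that share a normalization. Of 7 osteoclast markers, 2 fell in loaded tibiae (3 positive, median -0.53) and 1 rose in unloaded tibiae (7 positive, median 0.66). Neutrophil markers moved the other way, with 7 of 8 risen in loaded and 6 of 8 in unloaded tibiae, and of 6 adipocyte markers 2 rose in each (medians 0.14 and 0.57). How far cell composition bears on the 2 falls was not tested.

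The background measure also moved with DEX in loaded tibiae. With its log2 value as a covariate, Vdr differed by -0.91 (edgeR adjusted p = 0.139) and Pth1r by -0.62 (edgeR adjusted p = 0.333), and 29 of all 19780 genes were called. Since background did not overlap between these groups, the 2 cannot be told apart there. In unloaded tibiae, where background overlapped, Vdr fell by 0.69 with the covariate and was called (edgeR adjusted p = 0.0469).

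**Figure D3:**
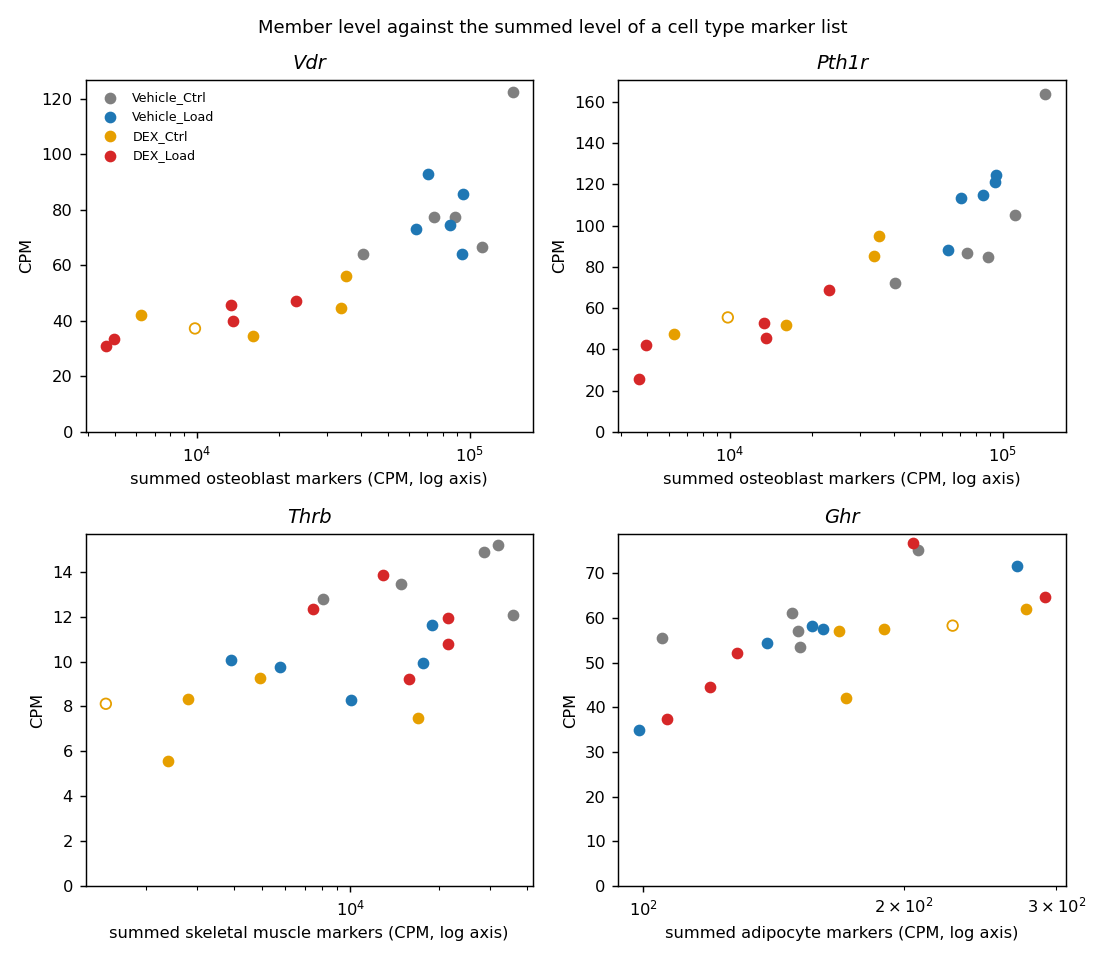
CPM of Vdr, Pth1r, Thrb and Ghr (y axes) in each library against the summed CPM of a marker list (x axes, log scale), with colors for the 4 groups and an open circle for DEX_Ctrl replicate 4. Over the 9 DEX libraries Pth1r has a rho of 0.917 with the osteoblast sum, and Thrb one of 0.367 with the muscle sum. Thrb has its lowest point, 5.56 CPM, in the DEX_Ctrl library with the lowest muscle sum of those tested, 2376 CPM. The DEX_Ctrl library with the highest muscle sum, 17011 CPM, has 7.49 CPM of Thrb.

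Pthlh (ENSMUSG00000048776.8, chr6:147252101-147264183, minus strand), the local ligand of Pth1r in the growth plate, held 13, 21, 30, 16 and 4 counts in Vehicle_Ctrl and 2, 1, 5, 4 and 4 in Vehicle_Load. In DEX_Ctrl it held 8, 11, 6 and 14 counts and in DEX_Load 8, 6, 11, 15 and 5. Vehicle_Load was the lowest group, and the Vehicle_Ctrl library with 4 counts overlapped with it. The gene missed the filter in the loaded DEX comparison. In unloaded tibiae its DEX difference was -0.82 (95% interval -1.89 to 0.25, edgeR adjusted p = 0.328). With all 4 groups in 1 model, where it passed the filter, it was higher in DEX_Load than in Vehicle_Load by 1.62 on the log2 scale (SE 0.578, edgeR adjusted p = 0.0351), from mean counts of 9 and 3.2 per library. With no filter and these 2 groups alone the difference was 1.46 (SE 0.712, edgeR adjusted p = 0.129). Pth itself, the gene of the parathyroid gland hormone, had a mean of at most 0.0872 CPM in any group.

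Of 24 other genes of the parathyroid hormone pathway, 6 of 21 tested passed in loaded tibiae (21.3% of all genes), 1 higher and 5 lower, and 4 of 21 in unloaded tibiae (6.84% of all genes), all lower. Nr4a2, an early transcription factor target of the hormone, fell by 1.11 (SE 0.230) in loaded and by 1.15 (SE 0.228) in unloaded tibiae, whereas its relative Nr4a1 rose by 0.81 (SE 0.252) in loaded tibiae. Gnas, whose product couples the receptor to cyclic AMP, fell by 0.70 (SE 0.182) in loaded tibiae, as did Sost, the osteocyte inhibitor of bone formation, by 0.65 (SE 0.217). With the background covariate their differences were -0.14 and -0.32 (edgeR adjusted p = 0.876 and 0.766). In unloaded tibiae Mef2c, a transcription factor of the Sost enhancer, fell by 1.17 (SE 0.199), and Gna11, a second G protein of the receptor, fell by 0.61 (SE 0.158; -0.50 and edgeR adjusted p = 0.0698 with the covariate).

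Esr1 (ENSMUSG00000019768.16, chr10:4611593-5005614, plus strand), the receptor through which estrogen protects bone, ranged from 39.2 to 49.3 CPM in Vehicle_Ctrl, 36.5 to 41.1 in Vehicle_Load, 33.2 to 39.8 in DEX_Ctrl and 29.3 to 41.7 in DEX_Load. The DEX difference on the log2 scale was -0.10 (95% interval -0.34 to 0.15) in loaded and -0.24 (-0.49 to 0.02) in unloaded tibiae (edgeR adjusted p = 0.551 and 0.238), so a fall as large as that of Vdr lay outside both intervals. Of the 14 other sex steroid genes, 2 of 9 tested passed in loaded tibiae (21.3% of all genes), Pgr (up by 1.69, SE 0.520) and Greb1 (up by 1.62, SE 0.435), both known estrogen-induced genes. Both had high rho with the receptor gene background (0.835 and 0.695), and with it as a covariate their differences were -0.19 and 0.31. In unloaded tibiae 0 of 8 passed with edgeR (3 had an unadjusted p under 0.05), with a median of -0.01. Cyp19a1, aromatase, stood at 1.96 ± 1.23 CPM in DEX_Load (SD, n = 5) and 0.115 ± 0.113 in Vehicle_Load (n = 5) and missed the filter there.

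Nr3c2 (ENSMUSG00000031618.13, chr8:76899442-77245012, plus strand) binds aldosterone and also glucocorticoids. It ranged from 9.68 to 14.7 CPM in Vehicle_Ctrl, 8.67 to 11.4 in Vehicle_Load, 10.0 to 11.6 in DEX_Ctrl and 9.10 to 10.97 in DEX_Load, and all groups overlapped. Its DEX differences were -0.02 (95% interval -0.32 to 0.29) in loaded and -0.17 (-0.55 to 0.20) in unloaded tibiae. The main glucocorticoid receptor gene Nr3c1, at 128 ± 8.63 CPM in Vehicle_Load (SD, n = 5), did not pass either (log2 difference -0.35 in loaded tibiae, edgeR adjusted p = 0.0796, and -0.14 in unloaded tibiae).

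Of 12 other corticoid genes, 3 of 10 tested passed in loaded tibiae, all higher (12.9% of all genes were called higher). Hsd11b1, which regenerates active glucocorticoid, rose by 1.15 (SE 0.214; 0.48 with the background covariate, edgeR adjusted p = 0.558), and the glucocorticoid-induced genes Zbtb16 and Fkbp5 rose by 1.01 (SE 0.213) and 0.87 (SE 0.175). In unloaded tibiae 2 of 10 passed (6.84% of all genes): Scnn1a, a sodium channel subunit, rose by 0.88 (SE 0.184) and Sgk1, a kinase induced by both corticoids, fell by 0.63 (SE 0.152). Fkbp5 differed by 0.81 there without passing (edgeR adjusted p = 0.0603). Hsd11b2, which protects Nr3c2 from glucocorticoids, was at 1.03 ± 0.230 CPM in Vehicle_Ctrl (SD, n = 5) and passed in neither comparison.

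Ghr (ENSMUSG00000055737.12, chr15:3317760-3583492, minus strand) ranged from 53.5 to 75.2 CPM in Vehicle_Ctrl, 35.0 to 71.6 in Vehicle_Load, 42.0 to 62.1 in DEX_Ctrl and 37.4 to 76.7 in DEX_Load. The group means lay between 54.7 and 60.5 CPM, and the DEX differences were 0.03 (95% interval -0.42 to 0.48) in loaded and -0.13 (-0.46 to 0.20) in unloaded tibiae. Its level varied with adipocyte markers, with rho of 0.745 over the vehicle and 0.850 over the DEX libraries. With skeletal muscle markers the values were 0.794 and 0.250, and with osteocyte markers -0.37 and 0.717. Among 10346 genes above 10 CPM, the 3 most alike over the 19 libraries were the adipocyte gene Fabp4 (rho 0.879), the adipocyte regulator Pparg (0.861) and Riok2 (0.835). Fabp4 is itself in the adipocyte marker list, so its match is not separate from the rho with that list.

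Downstream, 2 of 11 genes of the growth hormone axis passed in loaded tibiae (21.3% of all genes) and 4 of 11 in unloaded tibiae (6.84%). Igf1, the main mediator of growth hormone in bone, fell by 1.86 (SE 0.301) in loaded and by 1.02 (SE 0.192) in unloaded tibiae. Cish, an inhibitor of Stat5 signaling, rose by 1.61 (SE 0.259) in loaded tibiae. With the background covariate the loaded differences of Igf1 and Cish were -1.17 and 1.00 (edgeR adjusted p = 0.322 and 0.271). Socs3, another cytokine signaling inhibitor, and Igf1r, the Igf1 receptor, rose by 0.89 (SE 0.236) and 0.70 (SE 0.175) in unloaded tibiae, where the adaptor Irs1 fell by 0.53 (SE 0.146; -0.43 and edgeR adjusted p = 0.0781 with the covariate). Gh itself had a mean of at most 0.0955 CPM in any group.

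Thrb (ENSMUSG00000021779.17, chr14:17660261-18038090, plus strand) is 1 of the 2 genes that encode receptors for thyroid hormone. It stood at 12.1, 13.5, 14.9, 15.2 and 12.8 CPM in Vehicle_Ctrl, at 9.94, 10.1, 9.76, 11.6 and 8.28 CPM in Vehicle_Load, at 9.29, 8.34, 5.56 and 7.49 CPM in DEX_Ctrl and at 12.3, 11.95, 10.8, 13.9 and 9.21 CPM in DEX_Load. Every Vehicle_Ctrl library was above every Vehicle_Load and every DEX_Ctrl library, while DEX_Load overlapped with both vehicle groups.

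In unloaded tibiae Thrb fell by 0.82 on the log2 scale under DEX (SE 0.168, 0.567 of the vehicle level, edgeR adjusted p = 0.0180). It lost the call without DEX_Ctrl replicate 3 (edgeR adjusted p = 0.0700) or Vehicle_Ctrl replicate 5 (edgeR adjusted p = 0.0505). It also lost it with the replicate block (log2 fold change -0.70, edgeR adjusted p = 0.136) and in the same libraries without the number (edgeR adjusted p = 0.0799). In loaded tibiae the difference was 0.27 (95% interval -0.08 to 0.62, edgeR adjusted p = 0.238). The change in the DEX effect, 1.05 (SE 0.217), had an unadjusted p of 9.06e-05 and an edgeR adjusted p of 0.211, and the DESeq2 Wald test called it at an adjusted p of 0.00769, as 1 of 50 genes (0.211% of those tested). On simulated counts for the interaction, DESeq2 called 25 unchanged genes beside 141 of 200 changed ones, and edgeR 9 beside 144.

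Skeletal muscle markers moved in the same directions as Thrb. All 7 were lower in DEX_Ctrl than in Vehicle_Ctrl (median log2 difference -1.81) and all 7 were positive in the interaction (median 2.27), although only 1, Myh1, passed the test, in loaded tibiae, with sums of 8089 to 35762 CPM in Vehicle_Ctrl, 3905 to 18929 in Vehicle_Load, 2376 to 17011 in DEX_Ctrl and 7432 to 21559 in DEX_Load. Thrb had rho of 0.552 with their sum over the vehicle libraries and 0.367 over the DEX libraries. The values were -0.72 and -0.57 with osteoclast markers and 0.600 and -0.18 with osteocyte markers. With the log2 muscle marker sum as a covariate, an alternative added after seeing the data, Thrb differed by -0.69 in unloaded tibiae (edgeR adjusted p = 0.243), while 251 genes in all were called in place of 1351. The genes most alike Thrb over the 19 libraries were Mlip, a gene of heart and skeletal muscle (rho 0.900), Amigo1 (0.875) and Ppm1l (0.828).

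Of the thyroid hormone axis, 2 of 9 genes passed in loaded tibiae, both lower (8.35% of all genes were called lower), and 0 of 9 in unloaded tibiae with edgeR, where 3 had an unadjusted p under 0.05. Thra, the receptor that predominates in bone, fell by 0.55 (SE 0.173) in loaded tibiae and differed by -0.43 in unloaded tibiae (edgeR adjusted p = 0.0576). With the background covariate the loaded difference was -0.05 (edgeR adjusted p = 0.963). Thra was more abundant per kilobase than Thrb, at 15.5 against 1.85 CPM per kb in Vehicle_Ctrl. Of the partner receptors of Rxra, 2 of 8 passed in loaded tibiae, with Ppara up by 1.98 (SE 0.433) and Rarg lower by the fitted log2 difference of -0.61 (SE 0.189), and 0 of 8 in unloaded tibiae, where 0 had an unadjusted p under 0.05. With the covariate Ppara differed by 0.98 and Rarg by -0.08 in loaded tibiae (edgeR adjusted p = 0.536 and 0.941). In all 7 pathway lists together, 23 of 83 genes (27.7%) passed in loaded tibiae against 21.3% of all genes, and 14 of 81 (17.3%) in unloaded tibiae against 6.84%. The lists were chosen with earlier results of these data known, so these shares describe the lists only. With the background covariate, 0 of the 23 and 11 of the 14 passed.

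**Figure D4:**
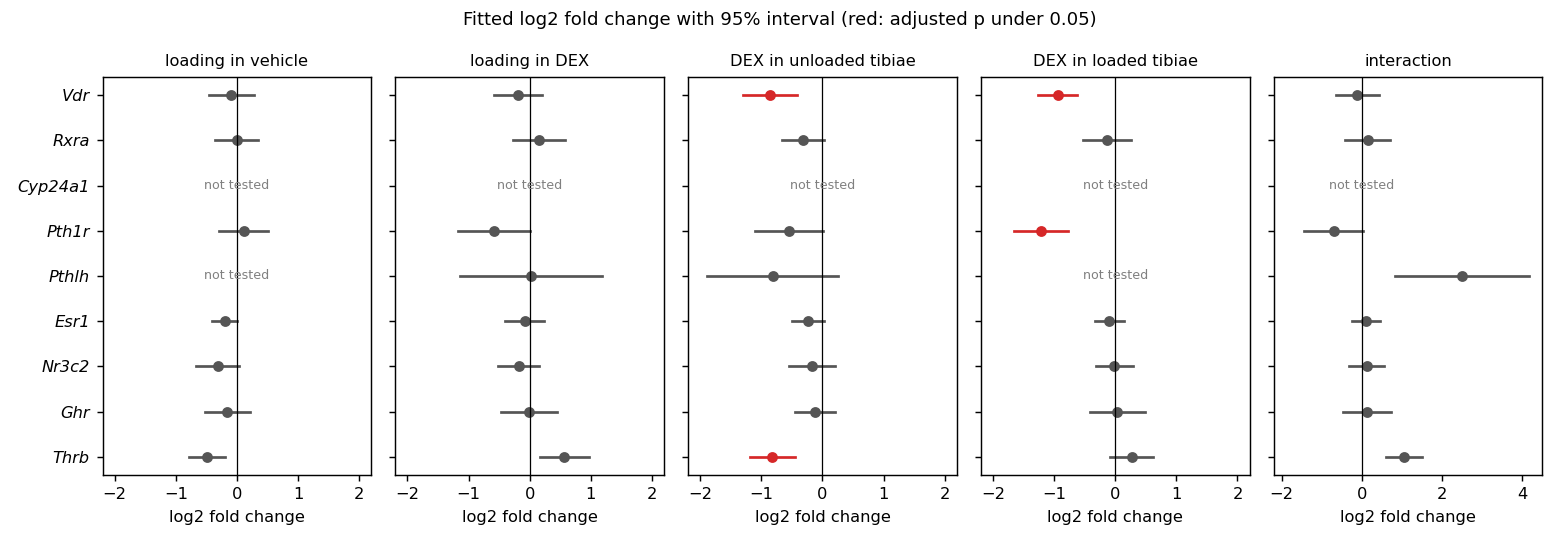
Fitted log2 fold change (points) with 95% interval (lines) of the 9 genes in the 5 edgeR comparisons, in red where the adjusted p was under 0.05; genes that missed the filter are marked as not tested. Vdr is red in both DEX panels, Pth1r in loaded and Thrb in unloaded tibiae only, and the loading and interaction panels hold no red point.

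The second question was how loading altered these genes. In vehicle mice 0 of 7 genes tested passed, and 0% of all 17982 genes did with edgeR (1773 had an unadjusted p under 0.05, and DESeq2 called 141). In DEX mice 0 of 8 passed, and 0% of all 22541 genes (958 unadjusted; DESeq2 called 0). The interaction, which asks whether DEX altered the loading response, called 0 of 8 and 0% of all 23653 genes (2859 unadjusted; DESeq2 called 50). The 4 pairwise comparisons share libraries, since each group enters 2 of them.

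Among the genes that passed the filter, Thrb was the 1 with an unadjusted p under 0.05 in each loading comparison. Its difference was -0.49 (95% interval -0.78 to -0.20, edgeR unadjusted p = 0.00292 and adjusted p = 0.307) in vehicle mice, where the groups did not overlap, as for 1.33% of all genes. It was 0.57 (0.17 to 0.97, edgeR unadjusted p = 0.00868 and adjusted p = 0.733) in DEX mice, where DEX_Load at 9.21 CPM and DEX_Ctrl at 9.29 CPM overlapped by 1 library each, and 1.25% of all genes had groups that did not overlap. The skeletal muscle markers were lower with load in vehicle mice (7 of 7, median -1.09) and higher in DEX mice (7 of 7, median 1.19), and their part in the Thrb differences was not tested beyond the covariate fit, which gave -0.42 and 0.52.

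Pthlh missed the filter for loading in vehicle mice. With no filter, it was lower by 2.44 on the log2 scale (SE 0.592, edgeR unadjusted p = 0.00043 and adjusted p = 0.130). Cyp24a1 missed the filter in both loading comparisons, and with no filter it was higher with load in DEX mice by 1.62 (SE 0.629, edgeR unadjusted p = 0.0152 and adjusted p = 0.739). The interaction for Pthlh was 2.49 (SE 0.802, edgeR adjusted p = 0.359). For Vdr, the intervals of the loading difference were -0.46 to 0.28 in vehicle and -0.58 to 0.20 in DEX mice, so a loading difference as large as its DEX fall lay outside both. For Pth1r they were -0.30 to 0.51 in vehicle and -1.17 to 0.01 in DEX mice.

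Across the 19 libraries, Vdr and Pth1r varied together (rho 0.844), and Vdr and Esr1 had a rho of 0.768. These values mix the treatment difference with the spread inside groups. The 3 genes most alike Vdr were Ptprcap (rho 0.956), Cnnm2 (0.949) and Trim44 (0.944), and those most alike Pth1r were Bmp1, the procollagen-processing protease (0.961), Sdk2 (0.960) and Atp8b2 (0.960). For Esr1 they were Serinc1 (0.888), Gucy1a1 (0.879) and Trim24 (0.877), and for Rxra Ubxn1 (0.939), Ubxn6 (0.932) and Trim35 (0.921). Nr3c2 and Pthlh had weaker matches, led by Tmem243 (0.735) and Fitm2 (0.761).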

How the data were processed

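Total RNA from whole pulverized tibiae was made into stranded libraries with a SMARTer kit for low inputs (Pico, v2), per the labels. The authors deposited RSEM expected counts per gene, not scaled for library size; STAR 2.7.10a, RSEM 1.2.28 and GRCm38 are named in the submitters' processing notes, and the annotation release and strand setting are not given in the sources used here. Between 10.6% and 14.0% of a library's values were not whole, and all were rounded. Each comparison used R 4.3.3 with edgeR 4.0.16: filterByExpr on the groups compared, TMM and the quasi-likelihood test with Benjamini-Hochberg adjustment over all genes tested, threshold 0.05. Intervals use the fit's own error and degrees of freedom. The interaction was fitted over 4 groups. The study removed DEX-4 without naming the tibia, and DEX_Ctrl replicate 4 was left out as the main choice. DEX_Load replicate 4, which was kept, had the lowest total of all libraries, 4641437 counts. It also had the highest receptor gene background, 5941 CPM, against 1317 CPM in DEX_Ctrl replicate 4. The other choices are among the alternatives, with DESeq2 1.42.0, other filters and scalings, a replicate block, each library left out and covariates. The edgeR and DESeq2 fits were tested on simulated counts with known changes in 200 genes. Per comparison, edgeR called 5 to 11 unchanged genes and DESeq2 17 to 28.

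The 9 genes, the 7 pathway lists (105 genes) and the 9 marker lists were chosen with earlier results of these data known. Of each pathway list, up to 3 of the largest rises and falls among called genes were named per comparison; 1 gene that met this rule is not reported here. Likeness was Spearman's rho of log2 CPM (prior count 2) over 19 libraries. Positions are those of GENCODE M21. Totals of 4641437 to 13032018 counts limit precision through counting error only.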

Additional observations from a re-analysis of the deposited data

Results flagged for a closer look

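Among 36 sets of values (9 genes in 4 groups) checked with Dixon's test at the 95% level, 1 held a library far from the others: Vdr stood at 122 CPM in the unnumbered Vehicle_Ctrl library, while the other 4 libraries of that group lay between 64.2 and 77.5 CPM. Chance alone gives about 1 in 20 such sets, and 1 in 36 is not above that rate. The same library had the highest Pth1r level, 164 CPM, and the highest osteoblast marker sum, 143396 CPM; their part in its Vdr level was not tested. Without it Vdr still fell under DEX in unloaded tibiae (edgeR adjusted p = 0.0241).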

How the results depend on the processing

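In loaded tibiae, the background covariate lowered the number of the 9 genes called under DEX from 2 to 0; leaving out each library kept it at 2. In unloaded tibiae the 2 became 0 with the replicate block, 0 in the same libraries without the number, 0 with the skeletal muscle covariate (these 2 added after seeing the data) and 0 to 2 without 1 library each. The interaction went from 0 to 1 (Thrb) with DESeq2. With no filter Cyp24a1, and with all 4 groups in 1 model Pthlh, was called as a further gene in loaded tibiae. The replicate block pairs numbers, not known animals, and in the DEX comparisons it joins different mice. Loaded and unloaded libraries of the same number correlated between -0.301 and 0.246 in vehicle and between 0.0295 and 0.357 in DEX mice. For different numbers the ranges were -0.401 to 0.377 and -0.525 to 0.621. No pairing was used, so the loading tests leave out the pairing of tibiae within a mouse. For loading in DEX, 1694 genes had an edgeR unadjusted p under 0.05 with the block and 520 in its libraries without the number. In either, 0 were called. The block changed no other count of calls among the 9 genes. Among all alternative fits, called or not, a value that was not called changed sign in 15 of 133 for loading in vehicle and 29 of 163 for loading in DEX. The same held in 14 of 133 and 2 of 151 for DEX in loaded and unloaded tibiae and in 9 of 239 for the interaction.
Over all genes, the 4206 called for DEX in loaded tibiae became 9016 with no filter, 2203 with at least 10 counts in every library, 8446 with all 4 groups in 1 model, 29 with the background covariate, 2326 with the replicate block, 1120 in its libraries without the number and 2696 without the unnumbered Vehicle_Load library. The 1351 called in unloaded tibiae became 2411 with DESeq2, 2658 with the background covariate, 251 with the muscle covariate, 2922 with DEX_Ctrl replicate 4, 520 with the replicate block, 566 in its libraries without the number, 830 and 530 without Vehicle_Ctrl replicates 4 and 5, and 828 and 129 without DEX_Ctrl replicates 2 and 3. The 0 for loading in vehicle became 141 with DESeq2, 50 with no filter, 4 in 1 model, 16 with the muscle covariate and at most 4 without 1 library. The 0 for loading in DEX and for the interaction became 39 and 54 without DEX_Ctrl replicate 5, and that for the interaction 50 with DESeq2.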
